A study of Mus musculus with 19 samples.

Results

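The transcripts of 8 collagen genes, Col1a1, Col1a2, Col3a1, Col5a1, Col5a2, Col5a3, Col12a1 and Col14a1, were followed in single cells from the injured mouse hind limb, in 3 cell classes that make tendon and soft-tissue matrix: stromal-like, tenocyte-like and mural-like cells. The genes were chosen by symbol as the collagens of the fibril, and all 8 were found among the 27998 genes of every library. The study followed heterotopic ossification, the growth of bone in soft tissue, after a dorsal burn combined with transection of the Achilles tendon (burn/tenotomy), and read cells from the injury site by droplet 3′-end sequencing with unique molecular identifiers (UMIs), so that 1 UMI stands for 1 captured transcript whatever its length. The 19 libraries held 39541 cells after filtering.

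The groups were day 0 (4 libraries), day 3 (3), day 7 (4) and day 21 (4) after injury, and p7N3 (4), a peptide that activates CD47, given at 10 mg/kg intraperitoneally every day from 3 days before to 3 days after injury. The labels list the burn for day 0 also, whereas the results section of the study describes its day 0 cells as taken before injury. The labels place p7N3 replicates 1 to 3 at day 7 and give no day for replicate 4. No label mentions a vehicle, and which of the day 7 libraries, if any, came from the PBS-treated animals that the study set against p7N3 is not given in the sources used here. C57 mice and LysmCre/Tgfb1fx/fx mice, in which LysM-driven Cre deletes Tgfb1 in myeloid cells, are named for the series as a whole and neither is tied to a library, and the methods describe young adult wild-type males, so a difference of genotype between libraries was not examined. Nothing in the labels says how many animals a library pooled, so p-values measure the spread between libraries. The tissue was freed with collagenase and dispase, and only cells that survived this digestion were read.

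Collagen fibrils are built mainly of type I collagen, whose chains are encoded by Col1a1 and Col1a2 and which carries the tensile strength of tendon and bone. Type III collagen, from Col3a1, forms thin fibrils with type I in extensible tissue and early scar. The type V chains, from Col5a1, Col5a2 and Col5a3, start fibrils and limit their width. Types XII and XIV, from Col12a1 and Col14a1, lie on the surface of fibrils and do not form them alone, so that the name fibrillar collagen holds strictly only for the other 6 genes.

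In the GRCm38 build with the GENCODE vM21 annotation, Col1a1 (ENSMUSG00000001506) lies on chromosome 11 from 94936224 to 94953042, and Col1a2 on chromosome 6 from 4504814 to 4541544. Col3a1 (chromosome 1, 45311538 to 45349706) and Col5a2 (chromosome 1, 45374321 to 45503282) are neighbours on opposite strands, 24614 bases apart, and do not overlap. Col5a1 lies on chromosome 2 from 27886425 to 28039514, Col5a3 on chromosome 9 from 20770050 to 20815067, Col12a1 on chromosome 9 from 79598991 to 79718831 and Col14a1 on chromosome 15 from 55307750 to 55520803.

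In units of 1000000 UMIs, libraries held 3.02 to 5.38 on day 0, 25.2 to 33.7 on day 3, 33.2 to 39.9 on day 7, 11.1 to 29.2 on day 21 and 25.4 to 35.5 with p7N3. No pair of libraries shared more than 22 cell barcodes, and none shared more than 1.26% of the barcodes of its smaller library. Cells were clustered without the 44 collagen genes of the annotation, and classes were named from fixed marker genes. The stromal-like class (9945 cells in 6 clusters) and the mural-like class (1903 cells) carried their markers, and the mural-like class was made of cluster 14, led by pericyte genes such as Rgs5 and Kcnj8, and cluster 19, led by the smooth muscle genes Myh11, Tagln and Acta2. The tenocyte-like class was cluster 0 (3712 cells), in which all 6 tenocyte markers were enriched, Scx and Tnmd among its leading genes, but so were 6 of 7 chondrocyte markers, with Col2a1, Col11a1 and Acan among the same leading genes. Values of the tenocyte-like class are therefore those of a mixed tendon and cartilage-like cluster. Day 3 held 5 tenocyte-like cells in all and was not tested in this class, and its day 0 libraries held only 10 to 20 tenocyte-like cells each.

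In stromal-like cells the 8 genes together made up 3.15% to 3.91% of all UMIs on day 0, 2.44% to 3.01% on day 3, 4.99% to 6.03% on day 7 and 5.92% to 6.82% on day 21, with p7N3 at 4.82% to 5.36%. The day 3 range lay below every other group, and the day 7 and day 21 ranges above day 0. In tenocyte-like cells the share was 4.32% to 5.80% on day 0, 5.95% to 6.72% on day 7 and 6.20% to 7.61% on day 21, the last pair overlapping. Mural-like cells gave by far the smaller share, 0.101% to 0.193% on day 0, but 0.844% to 1.22% on day 3, 0.911% to 0.978% on day 7 and 0.671% to 0.930% on day 21, and no library after injury overlapped day 0. Over whole libraries the share was 1.46% ± 0.252 (SD, n = 4) on day 0, 0.979% ± 0.220 (n = 3) on day 3, 3.47% ± 0.488 (n = 4) on day 7 and 4.53% ± 0.297 (n = 4) on day 21.

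**Figure D1:**
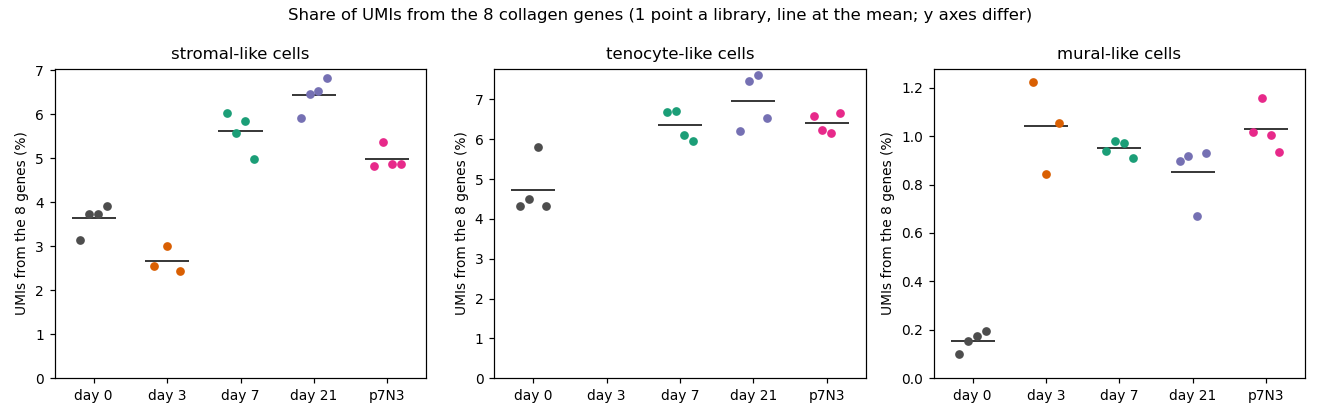
Percent of a class's UMIs that came from the 8 collagen genes, 1 point per library and a line at each group's mean, for stromal-like, tenocyte-like and mural-like cells (y axes differ between panels). Stromal-like cells dip on day 3 to 2.44% to 3.01% before rising, whereas mural-like cells are already at 0.844% to 1.22% on day 3 against at most 0.193% on day 0.

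The count of collagen transcripts per cell followed another course, being highest on day 3. Stromal-like cells carried 194 ± 21.5 UMIs of the 8 genes per cell on day 0 (SD, n = 4), 974 ± 32.4 on day 3 (n = 3), 747 ± 125 on day 7 (n = 4) and 817 ± 70.2 on day 21 (n = 4). Median total UMIs per stromal-like cell were 4337 to 6224 on day 0, 33168 to 41220 on day 3, 9179 to 17121 on day 7 and 10734 to 12491 on day 21. The fall on day 3 is thus one of the share of a cell's transcripts, given below as UMI counts per 1000000 UMIs of the class (CPM), and not of the collagen UMIs per cell. Capture per cell and RNA content per cell cannot be told apart in these counts.

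Most of the collagen UMIs of a library came from these classes. Stromal-like cells held 77.4% to 90.8% of them on day 0 and 87.9% to 88.5% on day 3, falling to 33.6% to 68.7% on day 7 and 34.7% to 45.2% on day 21. Tenocyte-like cells held 5.60% to 14.5% on day 0, 18.5% to 53.3% on day 7 and 47.9% to 56.8% on day 21, so that on day 21 they were the larger source in all 4 libraries. This ranking was read at the main clustering only, where the day 21 libraries held 284, 150, 160 and 567 cells of this mixed class. At a finer clustering, only 33, 32, 18 and 29 cells were named tenocyte-like. Mural-like cells never held more than 3.48%.

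The comparisons below share libraries, since day 0, day 3 and day 7 each enter more than 1 of them. Between day 0 and day 3 the stromal-like fibril genes parted. Col12a1 rose 9.25-fold, Col3a1, Col5a3, Col14a1, Col1a2 and Col5a1 fell, and Col1a1 and Col5a2 did not pass the test (edgeR quasi-likelihood test on UMI sums per library, adjusted p at or under 0.05 over all genes). The 10382 genes tested changed widely, 33.1% rising and 32.9% falling, and the 8 genes had a median log2 change of -0.30 against 0.00 for all genes. Col12a1 was at 26.0, 18.2, 25.1 and 21.0 CPM in the day 0 libraries and at 202, 220 and 187 CPM on day 3, a log2 change of 3.21 ± 0.13 (SE, edgeR adjusted p = 2.38e-10). The groups stood far apart, with no library between 26.0 and 187 CPM.

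Col3a1 was at 13638, 15027, 15279 and 16850 CPM on day 0 and 8957, 10132 and 8164 CPM on day 3, a log2 change of -0.65 ± 0.11 (edgeR adjusted p = 0.000156). Every day 3 library lay below every day 0 library. Col5a3, the least abundant of the type V chains, went from 408, 362, 274 and 294 CPM to 131, 101 and 134 CPM, a log2 change of -1.36 ± 0.14 (edgeR adjusted p = 1.7e-06). Col14a1 went from 250, 266, 249 and 231 CPM to 90.0, 126 and 81.3 CPM, a log2 change of -1.23 ± 0.14 (edgeR adjusted p = 3.57e-06). Neither of these genes overlapped between the days. Col1a2 fell by 0.37 ± 0.13 on the log2 scale (edgeR adjusted p = 0.0239) from 7962 to 11141 CPM to 6631 to 8393 CPM, ranges that overlapped, a call lost without day 0 replicate 3 or 4 or day 3 replicate 1 or 3 and in 2 other analyses of 20 (adjusted p 0.0521 to 0.113). Col5a1 fell by 0.23 ± 0.09 (edgeR adjusted p = 0.0443), a call lost in 14 of 20 alternative analyses (adjusted p 0.0626 to 0.415), among them DESeq2 and those without day 0 replicate 2, 3 or 4 or day 3 replicate 1 or 3. Col1a1, the partner chain of Col1a2, was at 7646, 9694, 9516 and 8802 CPM on day 0 and 8078, 9532 and 7925 CPM on day 3 (log2 change 0.03 ± 0.11, edgeR adjusted p = 0.835).

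The stromal-like cells of the 2 days came from different clusters. On day 0, 59.0% to 72.4% of them lay in cluster 11 (led by Gdf10, Gsn and Inmt) and 27.6% to 39.8% in cluster 17 (led by Pi16 and Pcolce2), whereas on day 3, 90.9% to 96.3% lay in cluster 16 (led by Cfd, Prg4 and Cxcl14). The summed CPM of the 20 stromal markers was 54750 to 63839 on day 0 and 9742 to 12231 on day 3, and that of 13 macrophage markers 73.6 to 187 and 1579 to 1777, with granulocyte markers at 47.2 to 74.0 and 1463 to 2470. Their part in the day 3 values was not tested.

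From day 3 to day 7 all 8 genes rose in stromal-like cells, where 25.2% of the 12968 genes tested rose and 25.5% fell. None of the 8 overlapped between the groups, but the share of all genes without overlap is not known. Col14a1 rose most, from 90.0, 126 and 81.3 CPM to 520, 425, 557 and 322 CPM, 4.38-fold (log2 2.13 ± 0.21, edgeR adjusted p = 3.61e-05). The other 7 rose by 0.77 (Col5a2) to 1.17 (Col5a3) on the log2 scale, with edgeR adjusted p from 2.28e-05 to 0.000294. The median of the 8 was 1.03, against 0.02 for all genes.

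Set against day 0, 7 of the 8 were higher on day 7, among 25.7% of 11723 genes that rose and 24.8% that fell. Col1a1 went from 7646, 9694, 9516 and 8802 CPM to 19847, 19059, 18878 and 16758 CPM, 2.15-fold (log2 1.10 ± 0.11, edgeR adjusted p = 1.95e-06). Col12a1 went to 397, 549, 392 and 447 CPM, 19.6-fold above day 0 (log2 4.29 ± 0.16, edgeR adjusted p = 2.66e-10). Both stood clear of day 0 in every library. Col1a2 rose by 0.61 ± 0.12, Col5a1 by 0.71 ± 0.10, Col5a2 by 0.67 ± 0.10 and Col14a1 by 0.91 ± 0.15 on the log2 scale, again without overlap. Col3a1 rose least, from 13638 to 16850 CPM to 20798, 18078, 20661 and 15995 CPM, ranges that overlapped (log2 0.35 ± 0.12, edgeR adjusted p = 0.0257), and this call was lost in 6 of 21 alternatives (adjusted p 0.0601 to 0.386), among them the replicate block and those without day 0 replicate 1, day 7 replicate 1 or day 7 replicate 3. Col5a3 was at 275, 258, 267 and 347 CPM on day 7 against 274 to 408 CPM on day 0 (log2 -0.18 ± 0.13, edgeR adjusted p = 0.271).

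From day 7 to day 21 the genes parted again. Col14a1, Col1a2 and Col3a1 rose and Col12a1 fell, while Col1a1 and the 3 type V chains did not pass the test, where 15.9% of 12209 genes rose and 16.2% fell. Col12a1 went to 236, 199, 263 and 248 CPM, below each of the day 7 libraries (log2 -0.89 ± 0.13, edgeR adjusted p = 0.000611). Col14a1 went to 683, 645, 743 and 712 CPM, above each of them, 1.55-fold (log2 0.63 ± 0.15, edgeR adjusted p = 0.00852). The 2 fibril-associated collagens thus moved in opposite directions over the same interval. Col1a2 rose from 13515 to 15725 CPM to 16253, 17664, 18113 and 20081 CPM (log2 0.31 ± 0.08, edgeR adjusted p = 0.0166), and Col3a1 from 15995 to 20798 CPM to 21962, 22568, 23891 and 23678 CPM (log2 0.31 ± 0.09, edgeR adjusted p = 0.0218), a call lost in 3 of 21 alternatives, without day 21 replicate 3, without day 7 replicate 2 and with no filter on low counts (adjusted p 0.0540 to 0.0630). Col1a1 was at 17556, 20964, 19393 and 20762 CPM on day 21, overlapping day 7 (log2 0.10 ± 0.08, edgeR adjusted p = 0.374).

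Over the whole class, day 21 still stood away from day 0 for every member, with 16.4% of 10344 genes higher and 16.4% lower. Col12a1 was 10.5-fold higher (log2 3.39 ± 0.14, edgeR adjusted p = 4.5e-09), Col14a1 2.9-fold (log2 1.54 ± 0.08, edgeR adjusted p = 4.93e-08) and Col1a1 2.29-fold (log2 1.20 ± 0.10, edgeR adjusted p = 1.06e-06). Col5a3 alone was lower, at 229, 264, 241 and 207 CPM against 274 to 408 CPM (log2 -0.45 ± 0.12, edgeR adjusted p = 0.00921, but 0.0553 in 1 fit of all 5 groups). No member overlapped between these days, but the share of all genes without overlap is not known. Within clusters 11 and 17 alone only Col12a1 (log2 1.04 ± 0.21, edgeR adjusted p = 0.00616) and Col14a1 (log2 1.19 ± 0.11, edgeR adjusted p = 2.72e-05) were called between these days, both higher, where 5.42% of 8419 genes were higher, and Col5a1 (-0.10) and Col5a2 (-0.03) had the opposite sign.

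**Figure D2:**
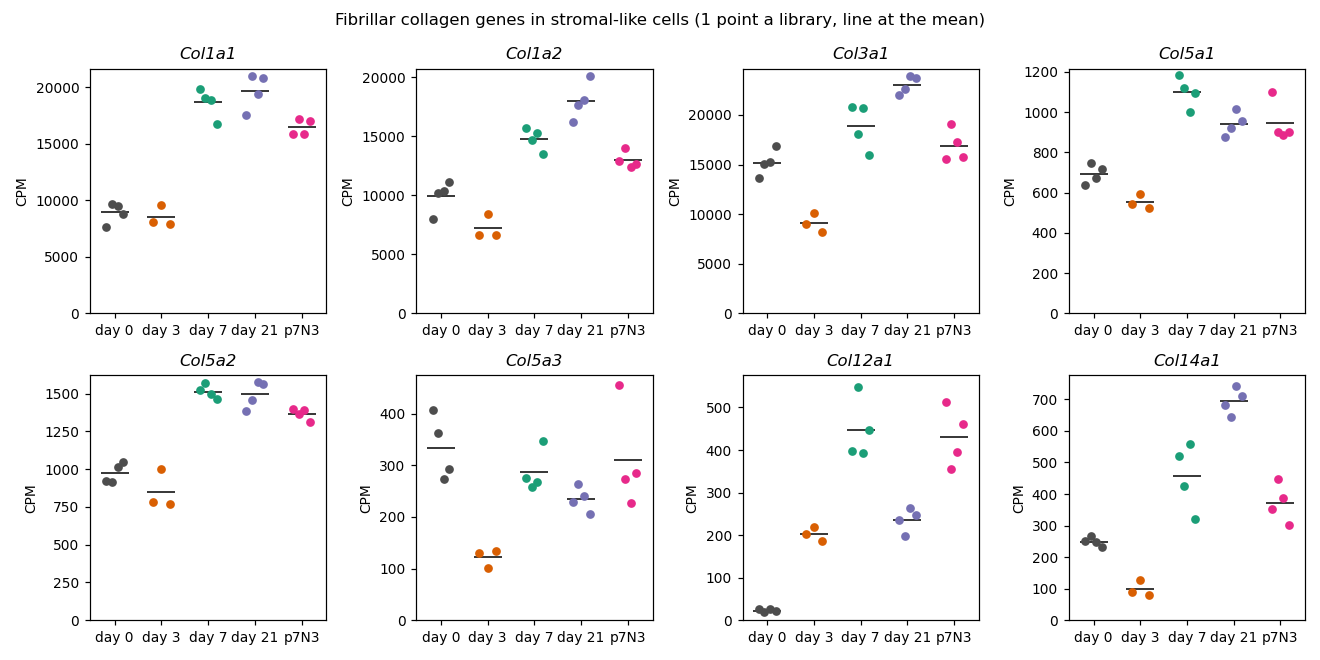
CPM of each of the 8 collagen genes in stromal-like cells, 1 panel per gene, 1 point per library and a line at each group's mean. Col12a1 goes from at most 26.0 CPM on day 0 to at least 187 CPM on day 3 and is lower on day 21 than on day 7, Col14a1 is lowest on day 3 and highest on day 21, and Col5a3 does not follow the other type V chains.

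More stromal-like cells also held Col12a1 after injury. With each cell thinned to 1500 UMIs, which left out 66 shallower stromal-like cells of day 0 and none of day 7, 2.87% of stromal-like cells on day 0 and 35.2% on day 7 held a Col12a1 UMI. Before thinning the shares were 8.99% and 72.8% at median depths of 5174 and 11492 UMIs per cell. Macrophage-like cells, taken as a measure of free RNA, gave 0.282% and 3.91% after thinning, at median depths of 3730 and 5277 UMIs.

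The level of a member depended on which stromal cluster a cell lay in, although collagens were left out of the clustering. These levels are a description, since the clusters were made from the same cells. On day 7 Col12a1 was at 563 to 846 CPM in cluster 6, which is led by Crabp1, Lrrc15, Tnc and Tnn and has Col12a1 and Col5a3 among its leading genes, at 401 to 618 CPM in cluster 13 (Sfrp1, Gzme) and at 187 to 255 CPM in cluster 1 (Ptn, Col14a1, Sfrp2). It was at 37.0 to 67.1 CPM in cluster 11 and 26.9 to 86.3 CPM in cluster 17, the clusters that made up day 0. Col14a1 had nearly the reverse order, at 964 to 1178 CPM in cluster 17, 775 to 873 CPM in cluster 1, 685 to 800 CPM in cluster 11, 303 to 433 CPM in cluster 13 and 85.1 to 136 CPM in cluster 6. Clusters 1 and 11 overlapped in that order and clusters 6 and 13 did not.

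Col3a1 on day 7 was at 26028 to 27329 CPM in cluster 1, 26727 to 33317 CPM in cluster 11 and 25879 to 30193 CPM in cluster 17, which overlapped one another, but at 16054 to 18618 CPM in cluster 13 and 10440 to 12954 CPM in cluster 6. The 8 genes together were 6.96% to 7.54% of UMIs in cluster 1 and 3.97% to 4.79% in cluster 6. Cluster 6, with more Col12a1 than cluster 1, thus had the smaller total.

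The makeup of the class moved with the days. On day 7 cluster 1 held 31.4% to 58.6% of stromal-like cells, cluster 6 14.7% to 45.6% and clusters 11 and 17 2.58% to 7.25% and 2.56% to 8.56%. On day 21 cluster 1 held 49.3% to 70.9%, cluster 11 18.0% to 40.3% and cluster 17 2.91% to 10.2%. The comparisons were therefore also made within clusters, an analysis added after the data were seen.

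Within clusters 11 and 17, day 7 was higher than day 0 in 7 of 8 genes, where 10.6% of 7388 genes were. Col3a1 was at 26293 to 31207 CPM on day 7 and 13638 to 16994 CPM on day 0 (log2 0.99 ± 0.12, edgeR adjusted p = 2.46e-05), and Col14a1 at 863 to 1008 CPM and 234 to 266 CPM (log2 1.98 ± 0.12, edgeR adjusted p = 6.43e-09). Over the whole class the changes of these genes had been 0.35 and 0.91. Col12a1 went from 18.2 to 26.0 CPM to 33.7 to 60.8 CPM (log2 0.97 ± 0.20, edgeR adjusted p = 0.00266), against a log2 change of 4.29 over the whole class. Col5a3 was again the exception (log2 -0.37 ± 0.18, edgeR adjusted p = 0.174).

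Between day 7 and day 21, 6 of 8 genes fell within clusters 11 and 17, where 3.64% of 7453 genes did, the opposite direction to the whole class for Col1a2, Col3a1 and Col14a1. Col14a1 changed by -0.79 ± 0.13 (edgeR adjusted p = 0.00321), Col1a1 by -0.69 ± 0.14 (edgeR adjusted p = 0.00955) and Col3a1 by -0.66 ± 0.12 (edgeR adjusted p = 0.00606) on the log2 scale. Col12a1 was at 0.09 ± 0.24 (edgeR adjusted p = 0.894), without the fall of the whole class. Within cluster 1 the same interval gave 1 called gene, Col5a1, which fell by 0.28 ± 0.09 (edgeR adjusted p = 0.0437) where 7.61% of 10814 genes fell, with Col3a1 at -0.04, Col14a1 at -0.03 and Col12a1 at -0.11. The rise of Col14a1 and the fall of Col12a1 from day 7 to day 21 over the whole class were thus found in neither of these cluster sets. Between day 3 and day 7 cluster 1, with 2 day 3 libraries, also gave 1 call, Col14a1 rising by 0.89 ± 0.16 (edgeR adjusted p = 0.00427) where 1.57% of 10938 genes rose.

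**Figure D3:**
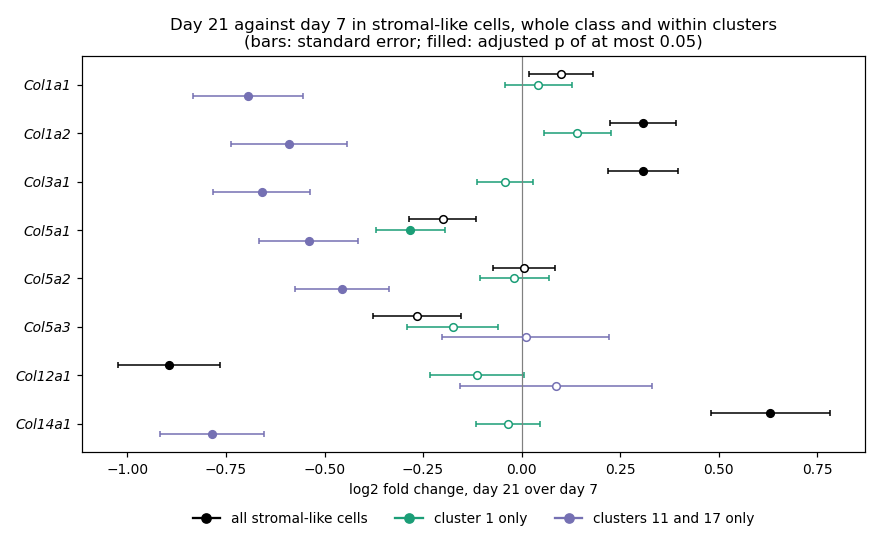
Log2 change from day 7 to day 21 of each collagen gene, with its standard error, in all stromal-like cells, in cluster 1 and in clusters 11 and 17. Col12a1 is at -0.89 in the whole class against -0.11 and 0.09 in the cluster sets, and Col14a1 at 0.63 against -0.03 and -0.79.

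In tenocyte-like cells the day 0 cells already had type I collagen transcripts above those of stromal-like cells, and after injury the chains of types III, V, XII and XIV rose while those of type I did not pass the test. From day 0 to day 7, 6 of 8 genes rose and none fell, where 13% of 8864 genes rose and 8.2% fell. Col5a1 was at 304, 234, 218 and 279 CPM on day 0 and 1662, 1487, 1448 and 1508 CPM on day 7, 6.79-fold (log2 2.76 ± 0.15, edgeR adjusted p = 2.58e-09). Col5a2 went from 559 to 702 CPM to 2162, 2441, 2115 and 2022 CPM (log2 1.98 ± 0.13, edgeR adjusted p = 2.62e-08). Neither type V chain had a day 7 library near the day 0 range.

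Col3a1 went from 6434, 4996, 5226 and 5932 CPM to 18662, 16259, 15632 and 15066 CPM, 3.32-fold (log2 1.73 ± 0.15, edgeR adjusted p = 2.45e-07). Col14a1 rose by 2.17 ± 0.26, Col5a3 by 1.68 ± 0.29 and Col12a1 by 0.94 ± 0.18 on the log2 scale, with edgeR adjusted p of 1.01e-05, 0.000463 and 0.00093. Col12a1 was abundant here before injury, at 787, 551, 615 and 535 CPM, against at most 26.0 CPM in stromal-like cells on the same day. Col1a1 was at 20141, 20643, 28479 and 19266 CPM on day 0 and 25128, 26589, 23536 and 23219 CPM on day 7, which overlapped (log2 0.34 ± 0.16, edgeR adjusted p = 0.154). Col1a2 overlapped also (log2 0.15 ± 0.16, edgeR adjusted p = 0.569). Without day 0 replicate 3 both type I genes passed the test as well, giving 8 of 8 higher.

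From day 7 to day 21 in tenocyte-like cells Col1a1 and Col1a2 rose and Col5a3 fell, where 17.7% of 11576 genes rose and 15.8% fell. Col1a1 reached 26670, 31936, 31516 and 27504 CPM (log2 0.34 ± 0.09, edgeR adjusted p = 0.0089), and Col1a2 20500, 22804, 24622 and 21996 CPM against 16445 to 18672 CPM (log2 0.45 ± 0.08, edgeR adjusted p = 0.00144). Each lay above day 7 in every library. Col5a3 went from 235, 172, 203 and 131 CPM to 72.2, 135, 127 and 87.5 CPM, with an overlap of 1 library on each side (log2 -0.74 ± 0.20, edgeR adjusted p = 0.0147). Col3a1 was at 10872, 14902, 14606 and 11351 CPM, below every day 7 library, but did not pass the test (log2 -0.26 ± 0.11, edgeR adjusted p = 0.104), except when collagens were allowed into the clustering (adjusted p = 0.0175). With finer clustering, which left 18 to 33 tenocyte-like cells in each day 21 library, none of these calls was made.

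The cells of this class also changed in kind. Summed CPM of the 6 tenocyte markers was 17394 to 25064 on day 0, 2671 to 3131 on day 7 and 6338 to 7985 on day 21, and that of 7 chondrocyte markers 117 to 234, 314 to 631 and 873 to 4098. Scx was at 549 to 903, 202 to 305 and 221 to 268 CPM on these days. The part of this shift in the collagen values was not tested.

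Mural-like cells gave the smallest share of their UMIs to these genes. From day 0 to day 7 all 7 tested genes rose, where 25.1% of 7696 genes rose and 21.7% fell. The median log2 change of the 7 was 2.53, against 0.10 for all genes. Col14a1 was at 0 to 8.77 CPM on day 0 and was too low to be tested. Without the filter on low counts it gave a log2 change of 1.68 ± 0.64 (edgeR adjusted p = 0.0346). It did not pass in 1 fit of all 5 groups (edgeR adjusted p = 0.110). Nor did it pass without each day 0 library in turn (0.105 to 0.263) or within cluster 14 alone (0.429).

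Col1a1 was at 192, 325, 302 and 378 CPM on day 0 and 2487, 3353, 2807 and 2969 CPM on day 7, 9.18-fold (log2 3.20 ± 0.17, edgeR adjusted p = 1.7e-10). Col5a1 went from 8.51, 17.5, 28.2 and 49.5 CPM to 313, 273, 269 and 339 CPM, 10.3-fold (log2 3.37 ± 0.27, edgeR adjusted p = 1.12e-08), and Col5a3 from 29.8, 79.0, 44.4 and 40.5 CPM to 372, 384, 357 and 474 CPM, 8.32-fold (log2 3.06 ± 0.21, edgeR adjusted p = 2.28e-09). All 3 stood well clear of day 0. Col3a1 rose 4.32-fold, Col1a2 5.11-fold, Col5a2 5.79-fold and Col12a1 4.12-fold, the last from 12.8, 8.77, 8.06 and 63.0 CPM to 107, 118, 116 and 91.3 CPM. For Col12a1 the log2 change was 2.04 ± 0.36 with all libraries and 3.34 without day 0 replicate 4 (edgeR adjusted p = 0.000135 and 4.56e-07).

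On day 3, with 28 to 36 mural-like cells per library and no test made, Col1a1 was already at 3648, 1821 and 3060 CPM and Col5a3 at 509, 420 and 407 CPM. Col5a3 was thus higher in mural-like than in stromal-like cells on these days, the latter being at 101 to 134 CPM on day 3 and 258 to 347 CPM on day 7, while it was lower in mural-like cells on day 0. On day 7 the Col5a3 level of this class lay in cluster 14, at 408 to 507 CPM, with cluster 19 at 41.4 to 133 CPM.

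From day 7 to day 21 Col5a1 (213, 238, 172 and 240 CPM, log2 -0.41 ± 0.12, edgeR adjusted p = 0.0164) and Col5a3 (231, 299, 218 and 258 CPM, log2 -0.61 ± 0.12, edgeR adjusted p = 0.0013) fell in mural-like cells without overlap, where 16% of 9222 genes rose and 15.2% fell. Without day 21 replicate 3 or without day 7 replicate 4, Col5a1 lost its call (edgeR adjusted p 0.0519 to 0.0554). The other 6 did not pass the test, Col1a1 being nearest at -0.33 ± 0.12 (edgeR adjusted p = 0.0546), a value that passed in 9 of 20 alternatives.

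Cluster 19 held 68% to 83.7% of mural-like cells on day 0, and cluster 14 held 73.9% to 91.3% on day 7, so the whole-class change also carries a change of makeup. Within cluster 14 (only 2 day 0 libraries had enough cells) Col1a1 rose by 2.01 ± 0.22, Col5a3 by 2.29 and Col3a1 by 0.72 ± 0.21 on the log2 scale, 6 genes being called where 7.32% of 9175 genes rose. Within cluster 19 Col1a1 rose by 3.57 ± 0.59, with 6 genes called where 13.5% of 2934 rose. From day 7 to day 21 cluster 14 alone gave rises of Col3a1 (log2 0.45 ± 0.10, edgeR adjusted p = 0.00243) and Col5a2 (log2 0.35 ± 0.09, edgeR adjusted p = 0.00895) and no call for Col5a1 or Col5a3, where 13.9% of 8573 genes rose. Cluster 19 gave no call for a member over that interval, where 0.136% of 3667 genes fell.

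Collagen UMIs of a class so low in them were set beside markers of other cells and beside free RNA, whose part in the values was not tested further. In droplets of at most 50 UMIs from day 0 replicate 1, which hold free RNA, Col1a1 was at 1271 CPM and Col3a1 at 3030 CPM, above the mural-like values of that library (192 and 400 CPM). Summed stromal markers in mural-like cells were 1839 to 3677 CPM on day 0 and 2122 to 2907 CPM on day 7, overlapping ranges, with the stromal marker Dcn at 106 to 528 and 112 to 267 CPM. Macrophage markers were at 80.6 to 102 CPM on day 0 and 392 to 1283 CPM on day 7. Against macrophage-like cells of the same library, Col1a1 in mural-like cells was 2.65 to 5.97 times as high on day 0 and 5.85 to 7.90 times on day 7, and Col5a3 4.77 to 12.8 and 25.7 to 36.5 times. Col14a1 was 0 to 0.814 times as high on day 0 and 0.815 to 2.08 times on day 7, so that its mural-like level was not clear of that in macrophage-like cells.

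**Figure D4:**
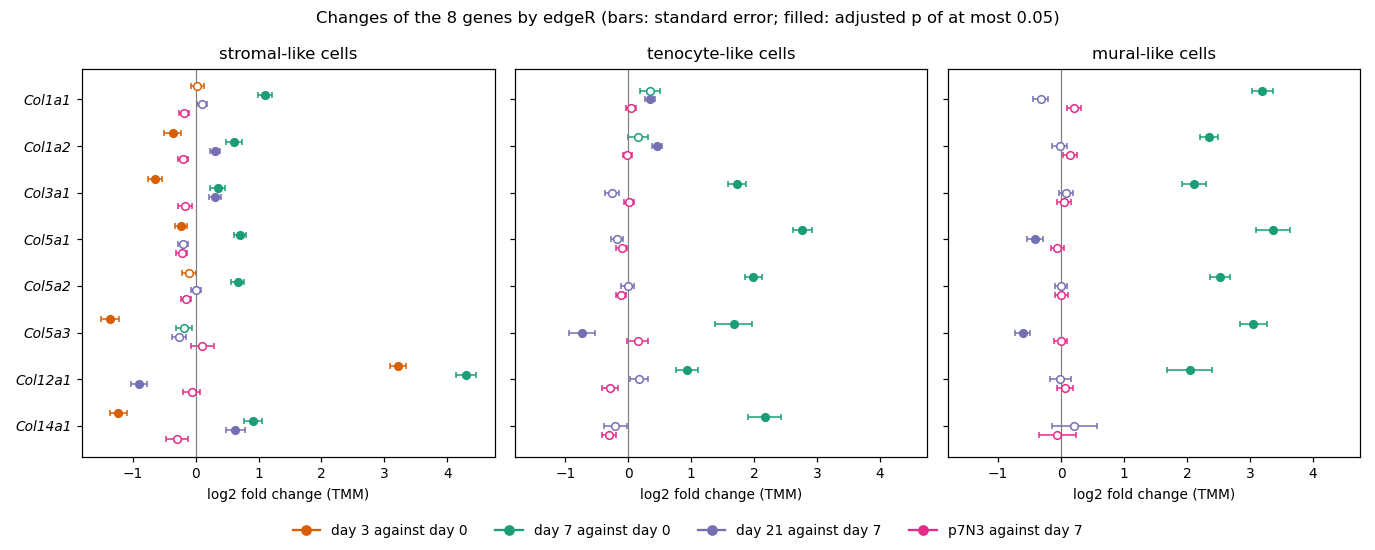
Log2 change of each collagen gene with its standard error in the 3 classes, for day 3 against day 0, day 7 against day 0, day 21 against day 7 and p7N3 against day 7, with filled points for an edgeR adjusted p at or under 0.05. No p7N3 point is filled, and the day 7 changes against day 0 run to 4.29 for Col12a1 in stromal-like cells and to 3.37 for Col5a1 in mural-like cells.

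The order of the 3 classes on day 7 depended on the gene. Col1a1 was at 23219 to 26589 CPM in tenocyte-like, 16758 to 19847 CPM in stromal-like and 2487 to 3353 CPM in mural-like cells, and Col12a1 at 837 to 1349, 392 to 549 and 91.3 to 118 CPM, without overlap. For Col3a1 the stromal-like (15995 to 20798 CPM) and tenocyte-like (15066 to 18662 CPM) ranges overlapped. Col14a1 was at 322 to 557 CPM in stromal-like, 184 to 252 CPM in tenocyte-like and 8.83 to 26.9 CPM in mural-like cells. Col5a3 had the reverse order of Col1a1, at 357 to 474 CPM in mural-like, 258 to 347 CPM in stromal-like and 131 to 235 CPM in tenocyte-like cells, again without overlap.

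The ratio of Col3a1 to Col1a1 UMIs compares type III with type I collagen transcripts within a library and needs no scaling between libraries. In stromal-like cells it was 1.71 ± 0.17 on day 0 (SD, n = 4, range 1.55 to 1.91), 1.07 ± 0.04 on day 3 (n = 3), 1.01 ± 0.07 on day 7 (n = 4, 0.949 to 1.09) and 1.17 ± 0.08 on day 21 (n = 4, 1.08 to 1.25). Each day after injury lay wholly below day 0, at the smallest p that 4 against 4 libraries allow (two-sided exact permutation test of the log2 ratio, p = 0.0286 for day 7 and day 21, Benjamini-Hochberg adjusted over 6 comparisons 0.0571). From day 7 to day 21 the log2 difference was 0.22 (exact permutation p = 0.0571, adjusted 0.0857).

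Tenocyte-like cells started from the opposite side. Their ratio was 0.184 to 0.319 on day 0, 0.611 to 0.743 on day 7 and 0.408 to 0.467 on day 21, with no overlap between these days, and it stayed under 1 throughout. In mural-like cells the ratio was 2.05 to 2.64 on day 0, 0.928 to 1.45 on day 7 and 1.27 to 1.63 on day 21. Only the tenocyte-like ratio was higher on day 7 than on day 0. In stromal-like cells the ratio of Col1a1 to Col1a2 also moved, from 0.790 to 0.960 on day 0 to a mean of 1.26 ± 0.03 (SD, n = 4) on day 7 and 1.09 ± 0.07 (SD, n = 4) on day 21.

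**Figure D5:**
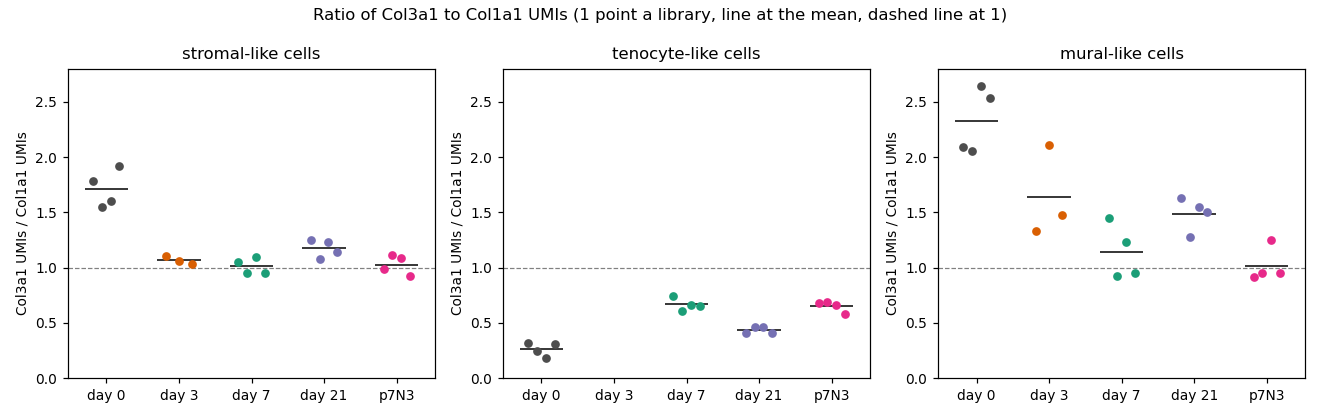
Ratio of Col3a1 to Col1a1 UMIs in each library, 1 point per library with the group mean, for stromal-like, tenocyte-like and mural-like cells, with a dashed line at 1. Stromal-like and mural-like libraries come down from day 0 (at least 1.55 and 2.05) to day 7, whereas tenocyte-like libraries go up from at most 0.319 to at least 0.611.

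The p7N3 libraries were compared with day 7 to ask whether the CD47-activating peptide changed these genes. No member passed the test in any of the 3 classes with edgeR, nor with DESeq2. Calls over all genes were few, with 0% higher and 0% lower of 12742 genes in stromal-like cells, 0.0183% and 0.0733% of 10915 in tenocyte-like cells, and 0.0107% and 0% of 9382 in mural-like cells, while 1943, 1368 and 625 genes had an unadjusted p under 0.05 and DESeq2 called 188, 75 and 1.

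In stromal-like cells with p7N3, Col1a1 was at 15858, 17199, 15883 and 17005 CPM against 19847, 19059, 18878 and 16758 CPM on day 7 (log2 -0.18 ± 0.08, edgeR adjusted p = 0.3). Col1a2 was at 12900, 13998, 12399 and 12627 CPM against 13515 to 15725 CPM (log2 -0.20 ± 0.08, edgeR adjusted p = 0.28). Col5a2, at 1400, 1367, 1390 and 1312 CPM against 1465 to 1572 CPM, was below day 7 in all 4 libraries by CPM but also did not pass (log2 -0.15 ± 0.07, edgeR adjusted p = 0.352). Col12a1 was at 514, 355, 395 and 461 CPM against 392 to 549 CPM on day 7, with replicate 2 below that range (log2 -0.06 ± 0.14, edgeR adjusted p = 0.864). With the 6 residual degrees of freedom, the 95% interval of the fold for Col1a1 was 0.770 to 1.01 in stromal-like, 0.898 to 1.19 in tenocyte-like and 0.963 to 1.39 in mural-like cells. Over the 8 genes and 3 classes this unadjusted interval lay wholly on 1 side of 1 for tenocyte-like Col14a1 alone (0.674 to 0.967). The edgeR test itself gave an unadjusted p under 0.05 for 3 stromal-like members, Col1a1 (0.0402), Col1a2 (0.0324) and Col5a1 (0.0329). It did so for 2 tenocyte-like members, Col12a1 (0.0457) and Col14a1 (0.0123), and for 0 mural-like ones. All of these were lower with p7N3. Within clusters 11 and 17 alone, Col1a1 was at -0.60 ± 0.16 and Col1a2 at -0.52 ± 0.14 on the log2 scale with p7N3, which also did not pass (edgeR adjusted p = 0.590 each).

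In tenocyte-like cells the p7N3 libraries had Col1a1 at 24073 to 28021 CPM, Col3a1 at 15871 to 17491 CPM and Col5a1 at 1293 to 1521 CPM, all overlapping day 7. Col12a1 was at 806 to 937 CPM and Col14a1 at 155 to 186 CPM, the members with the lowest values relative to day 7 (log2 -0.29 ± 0.13 and -0.31 ± 0.11, edgeR adjusted p = 0.39 and 0.256). Mural-like cells had Col1a1 at 2991 to 3870 CPM and Col5a3 at 365 to 435 CPM. The ratio of Col3a1 to Col1a1 in stromal-like cells was 1.03 ± 0.09 (SD, n = 4) with p7N3 (exact permutation p = 0.743 against day 7).

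The other genes of collagen fibrils were read from 4 lists: 12 other collagen chains, 27 genes of collagen biosynthesis and crosslinking, 17 fibril assembly partners and 16 collagen receptors and turnover genes. From day 0 to day 3 in stromal-like cells, 16 of 26 tested biosynthesis genes rose and 4 fell, while 1 of the 8 members rose and 5 fell. Over all genes tested, 33.1% rose and 32.9% fell. The falls of Col1a2 and Col5a1 were not called in 6 and 14 of 20 alternatives. Lox, the enzyme that starts crosslinks, was at a mean of 118 CPM on day 0 and 1048 CPM on day 3 (log2 3.22 ± 0.17), and P4ha3, a prolyl hydroxylase subunit, at 11.8 and 79.5 CPM (log2 2.92 ± 0.17). Pcolce2, which enhances propeptide cleavage and is among the leading genes of cluster 17, went from 749 to 63.8 CPM (log2 -3.46 ± 0.13).

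Of 16 tested assembly partners, 5 rose and 8 fell over the same days, where 33.1% of all genes rose and 32.9% fell. The matricellular gene Tnc rose from 10.6 to 285 CPM (log2 4.82 ± 0.37), and Tnxb, which bridges fibrils, fell from 883 to 34.4 CPM (log2 -4.57 ± 0.18). Among receptors and turnover genes 2 of 12 rose and 7 fell, Timp1 changing by 5.85 ± 0.28 and Timp3 by -3.01 on the log2 scale. The collagenase gene Mmp13 was at 0 UMIs in the day 0 libraries and at a mean of 67.2 CPM on day 7, so that no fold is given.

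From day 0 to day 7 in stromal-like cells, 6 of 7 tested other chains rose, 15 of 26 biosynthesis genes rose and 3 fell, 7 of 17 partners rose and 5 fell, and 6 of 14 receptors and turnover genes rose and 4 fell. Over all genes tested, 25.7% rose and 24.8% fell. Col11a1, a fibrillar chain of cartilage, went from 7.96 to 151 CPM (log2 4.33 ± 0.18). Tnc went from 10.6 to 586 CPM (log2 5.80 ± 0.33), while the small proteoglycan gene Dcn fell (log2 -1.67 ± 0.14). From day 3 to day 7 the partners rose in 13 of 17 and fell in none, where 25.2% of all genes rose and 25.5% fell.

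After day 7 biosynthesis and assembly genes moved apart in stromal-like cells up to day 21, 6 of 27 biosynthesis genes rising and 15 falling, and 10 of 17 partners rising and 3 falling. Fmod, a proteoglycan that guides fibril growth, rose from 49.8 to 260 CPM (log2 2.40 ± 0.16) and Tnc fell from 586 to 135 CPM (log2 -2.10 ± 0.16). The median log2 changes were -0.34 for biosynthesis genes and 0.53 for partners, against 0.05 for the 8 genes and -0.00 for all genes. In tenocyte-like cells 3 of 26 biosynthesis genes rose and 8 fell, Serpinh1, the collagen chaperone, by 0.79 ± 0.11 on the log2 scale, and 10 of 17 partners rose and 3 fell, with Prelp going from 76.2 to 433 CPM. The mural-like class had 1 of 24 biosynthesis genes rising and 12 falling, Serpinh1 among them (log2 -0.89 ± 0.10), with 5 of 16 partners rising and 2 falling. Over all genes tested from day 7 to day 21, 15.9% rose and 16.2% fell in stromal-like cells. The shares were 17.7% and 15.8% in tenocyte-like cells and 16% and 15.2% in mural-like cells. Several of the partners, such as Dcn, Lum, Fmod and Kera, are also class markers here.

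In tenocyte-like cells from day 0 to day 7, 14 of 24 biosynthesis genes rose and 4 fell, and 8 of 17 partners rose and 6 fell. Over all genes tested, 13% rose and 8.2% fell there, and 25.1% rose and 21.7% fell in mural-like cells. The fibril-associated chain Col22a1, found at tendon and muscle junctions, went from 724 to 5.60 CPM (log2 -7.48 ± 0.68), and Kera, a proteoglycan of tendon and cornea, from 956 to 63.3 CPM (log2 -3.73 ± 0.29). In mural-like cells 19 of 23 biosynthesis genes rose and none fell, with Adamts2, which cleaves the amino propeptides of fibrillar procollagens, going from 23.3 to 296 CPM (log2 3.50 ± 0.26). With p7N3 no gene of the 4 lists was called in any class.

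Over the 19 stromal-like sums, Col1a1 followed Col1a2 (Spearman 0.95) and Col1a2 followed Col3a1 (0.97), and Col5a1 followed Col5a2 (0.90). Col5a3 followed none, at -0.11 to 0.33 with the other members. The genes whose levels most resembled Col12a1 among 7848 were Ptk7, Tnn and Lrrc15, at 0.97 each, and those nearest Col14a1 were Ppic and Lum, at 0.98 each, and Gaa at 0.97. Col3a1 was nearest to Ppic (0.95), Izumo4 and Ltbp3 (0.94 each). These correlations describe 19 libraries that share groups and depth.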

How the data were processed

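The authors deposited UMI counts per gene and droplet, made with Cell Ranger from 10x 3′ libraries and analysed by them in Seurat. The labels name the builds GRCh38 and mm10, with replicate 4 differing in this from replicates 1 to 3, whereas every gene identifier is a mouse one. Day 3 has no replicate 4, so its comparisons set replicates 1 to 3 against groups that hold both kinds. The deposited matrices held called cells, except that of day 0 replicate 1, which held every barcode. Cells were kept here at 500 or more genes and at most 25% mitochondrial UMIs, the filter of the study. Leiden clusters were made in scanpy 1.11.5 (leidenalg 0.10.2, 2000 variable genes without collagens, 30 components, 20 neighbours, resolution 0.8). The rule that turned marker counts into class names (at least 3 markers enriched 2-fold and detected in 10% of cells) was set after the data were seen. Doublets were treated as an alternative, leaving out the highest 3.9% of Scrublet scores.

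UMI counts were summed per library and class where 10 or more cells were present, and tested with edgeR 4.0.16 (R 4.3.3, TMM factors, filterByExpr, quasi-likelihood test) over the groups compared, with Benjamini-Hochberg adjustment over all genes at 0.05. The ratio of Col3a1 to Col1a1 was tested by exact permutation. The tests were checked on simulated data. For each list and comparison, the genes that could be named were the 2 largest rises and the 2 largest falls past the threshold at a mean of 10 CPM or more, all 8 members always being named. The members, lists and tests were chosen with earlier results of these data known. Alternatives were DESeq2 1.42.0, other scaling, filters and clusterings, a replicate block, each library left out and single clusters.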

Additional observations from a re-analysis of the deposited data

Results flagged for a closer look

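In each group of 4 libraries the highest or lowest library was compared with the others by Dixon's test at its 95% critical value, over 120 groups. Chance alone marks about 1 in 20 groups, and 10 were marked. In stromal-like cells with p7N3, Col5a1 was at 1101 CPM in replicate 1 against 888 to 902 CPM in the others, and the 8 genes together at 53640 CPM in replicate 2 against 48167 to 48807 CPM. In tenocyte-like cells of day 0, replicate 3 had Col1a1 at 28479 CPM against 19266 to 20643 CPM and the 8 genes at 57999 CPM against 43168 to 44954 CPM. The 8 gene sum is dominated there by Col1a1 and Col1a2, and these libraries held 10 to 20 such cells each.

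In mural-like cells, Col12a1 was at 63.0 CPM in day 0 replicate 4 against 8.06 to 12.8 CPM, and at 142 CPM in day 21 replicate 4 against 85.6 to 88.8 CPM. Col1a2 was at 2142 CPM in day 7 replicate 3 against 1944 to 1971 CPM, and at 1421 CPM in day 21 replicate 3 against 2016 to 2106 CPM. Day 21 replicate 3 also had the lowest sum of the 8 genes, 6711 CPM against 8959 to 9305 CPM, and without it 1 mural-like gene instead of 2 was called between day 7 and day 21. The ratio of Col3a1 to Col1a1 was 1.25 in p7N3 replicate 3 against 0.913 to 0.948.

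The change from day 0 to day 7 differed between classes for every member tested, with no overlap of the libraries (the log2 difference between the classes was taken within each library, and the 4 day 7 libraries were set against the 4 day 0 libraries by a two-sided exact permutation test, p = 0.0286, the smallest it can give, unadjusted over 15 tests, and chosen after the data were seen). The comparison was made for the members only. The share of all genes that differ in this way is not known, so the differences cannot be called particular to the members. Mural-like cells exceeded stromal-like cells in log2 change by 2.25 for Col1a1, 1.90 for Col1a2, 1.96 for Col3a1, 3.13 for Col5a1, 1.99 for Col5a2 and 3.33 for Col5a3, while for Col12a1 the difference was -1.51. Tenocyte-like cells exceeded stromal-like cells by 1.23 for Col3a1, 1.90 for Col5a1, 1.15 for Col5a2, 1.69 for Col5a3 and 1.20 for Col14a1. For Col1a1, Col1a2 and Col12a1 the tenocyte-like change minus the stromal-like one was -0.90, -0.60 and -3.57. Classes of a library share its free RNA, whose part in these differences was not tested.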

How the results depend on the processing

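Of 244 recomputed counts of called members under other scaling, filters, tools and clusterings or without a library, 240 stayed within 1.5 times. Of 1926 values of single members, none that was called in either analysis changed direction, 35 lost and 16 gained a call. None of 230 recomputed shares and ratios was marked as changed in direction or call. None had a call to lose, the lowest adjusted p of their main exact permutation tests being 0.0571. These marks do not say how far the values moved. The exceptions were mural-like day 7 against day 0 with at least 10 UMIs in every library (4 called), mural-like day 21 against day 7 without day 21 replicate 3 or without day 7 replicate 4 (1 each), and tenocyte-like day 21 against day 7 at the finer clustering (0 called, with Col1a1 at adjusted p = 0.195 and Col1a2 at 0.121 in edgeR). Leaving out each library gave 4 to 6 called members for stromal-like day 3 against day 0, 8 for day 7 against day 3, 6 to 7 for day 7 against day 0, 3 to 4 for day 21 against day 7 and 8 for day 21 against day 0, then 6 to 8 and 3 for the tenocyte-like and 7 and 1 to 3 for the mural-like comparisons (day 7 against day 0, day 21 against day 7), and 0 with p7N3. Over all genes, p7N3 against day 7 gave 0 calls with edgeR and 188 with DESeq2 in stromal-like cells, and 10 and 75 in tenocyte-like cells. Single clusters, added after the data were seen, changed more. In clusters 11 and 17, day 21 against day 7 had the opposite direction for Col12a1 (0.088), Col14a1 (-0.79), Col1a1 (-0.69), Col1a2 (-0.59), Col3a1 (-0.66) and Col5a2 (-0.46), and day 21 against day 0 for Col5a1 (-0.10) and Col5a2 (-0.029), with 2 members called there. Cluster 1 reversed Col14a1 (-0.035) and Col3a1 (-0.042) from day 7 to day 21, with 1 member called then and 1 from day 3 to day 7, where 2 day 3 libraries entered. Cluster 14 reversed mural-like Col5a2 (0.35), and cluster 19 called 0 from day 7 to day 21. The cause was not tested. With replicates 1 to 3 only, also added after the data were seen, every count of called members stayed within 1.5 times. Replicate numbers did not pair the libraries (correlations of same-numbered deviations -0.161 to 0.181, never all over 0.1). With the replicate block, called members were 5, 8, 6, 4, 8 and 0 in the 6 stromal-like, 6, 3 and 0 in the tenocyte-like and 7, 3 and 0 in the mural-like comparisons. Day 0 tenocyte-like values rest on 10 to 20 cells and mural-like ones on 25 to 66 cells a library.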

Other observations

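Outside the 3 classes, skeletal muscle-like cells of day 0 carried type III without comparable type I collagen transcripts. Col3a1 was at 891 to 1466 CPM in the 4 libraries and Col1a1 at 86.8 to 177 CPM, without overlap. Thinned to 1500 UMIs, 80.3% of these cells held a Col3a1 UMI and 13.3% a Col1a1 UMI, against 23.4% and 8.47% of macrophage-like cells on the same day (92.2% and 34.2% of the muscle cells before thinning, at a median of 4168 UMIs). Only 1 day 7 library held enough such cells for a value. In 3 day 21 libraries Col3a1 was at 816 to 1301 CPM and Col1a1 at 340 to 905 CPM, ranges that overlapped. In 2 p7N3 libraries Col3a1 was at 362 to 448 CPM and Col1a1 at 295 to 323 CPM.

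Schwann-like cells of day 0 had Col5a3, a type V chain known from peripheral nerve, at 90.0 to 238 CPM, and Col1a2 above Col1a1 at the median (1057 and 718 CPM). The free RNA of day 0 replicate 1 held Col5a3 at 130, Col1a2 at 1451 and Col1a1 at 1271 CPM. Its part in the Schwann-like values was not tested. In 3 day 7 libraries Col1a1 was at 1992 to 3511 CPM in these cells and Col5a3 at 68.8 to 92.6 CPM. A cluster led by the proliferation genes Birc5, Cdk1 and Cdc20, which stayed without a name and of whose cells 79.8% held Pdgfra, gave 3.13% to 4.46% of its UMIs to the 8 genes on day 7, with Col12a1 at 462 to 678 CPM and Col14a1 at 45.3 to 108 CPM. These levels are a description with no test.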
